A study of Oryza sativa Japonica Group with 12 samples.

Results

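NAC transcription factor genes were followed across old and young rice leaves with and without extra miR156. Members were the genes whose annotated symbol or synonym, with a leading Os ignored, is NAC, SNAC or ONAC followed by digits, and the 10 brightest were to be taken. The gene table used held 10 such genes, and 8 of them had probe sets that name 1 gene, so all 8 were kept. They stood for 13 of the 57381 probe sets and 8 of the 17905 genes named on the array. Of the other members of the table, LOC4325120 (OsNAC8) was annotated only on 2 probe sets shared with another gene and is not described, and NAC077 had no probe set in the annotation used. Other rice NAC genes carry no such name in the table and were not analysed here.

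The 12 arrays came from Oryza sativa, Japonica group, at 45 days. Wild-type plants (WT, 3 plants) were compared with 3 independent transgenic lines that over-express miR156 (OE), named Md15, Md43 and Mh9 in order of replicate number, so that each OE replicate was also a line of its own. Transgenic plants had been selected on hygromycin, and no transgenic line without over-expression was sampled, so over-expression and transformation cannot be told apart. Each plant gave leaf 3 (L3), by then old, and leaf 6 (L6), still young, counted by emergence on the main tiller. The 4 groups WT_L3, OE_L3, WT_L6 and OE_L6 thus held 3 arrays each, and leaf age and leaf position changed together. Which promoter drives the transgene was not given in the sources used here. Of interest were genes that respond to miR156 by a direct or an indirect route, miR156 being a small RNA of the juvenile phase that silences many SPL genes.

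NAC proteins are transcription factors found only in plants. They bind DNA through a conserved domain near the amino end, the NAC domain, and most activate transcription through a variable region behind it. In rice leaves the family is known for responses to abscisic acid, drought and salt, for the onset of leaf senescence, and, in another branch, for the thickening of secondary cell walls.

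Of 24 listed green leaf markers 5 were on the array and 4 passed the filter. RBCS, of the Rubisco small subunit, was at 10034 ± 1069 (SD, n = 3) in WT_L3 and 12949 ± 131 in WT_L6, and the light-harvesting gene CAB2R at 8695 ± 406 and 6346 ± 1295. The Rubisco activase gene RCA was at 2910 ± 231 and 4332 ± 385, and the fructose-bisphosphatase gene FBP1 at 829 ± 143 and 1223 ± 254. Array medians ran from 50.8 to 56.5 signal units. A leaf score set each array on a line through the group means of the opposite genotype, with L3 at 0 and L6 at 1, leaving out the NAC probe sets. L6 arrays scored 0.879 to 1.11. Among L3 arrays, WT replicates 1 to 3 scored 0.380, -0.285 and -0.265, and OE replicates 1 to 3 scored 0.255, 0.210 and -0.222. OE_L6 replicate 1 differed in its Dap control, whose log2 ratio of 3′ to 5′ signal was 5.35 against 3.20 to 3.70 on the other arrays. Results that rest on single arrays are given below with and without them.

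The NAC genes were lower in the young leaf. Of the 6 genes that passed the filter on dim probe sets, 5 fell from L3 to L6 in WT and 4 fell in OE, and no gene rose. Among them, ONAC045 passed the filter only through its L3 signal. The test was limma with a threshold of 0.05 for p-values adjusted by the Benjamini-Hochberg method over 34316 probe sets. In WT 24.2% of all tested probe sets fell, and in OE 23.5% fell. The median log2 difference of the 6 genes was -1.13 in WT and -1.23 in OE, beside 0.02 and 0.00 for all probe sets tested. Groups did not overlap, with every L6 array below every L3 array, for 5 of 6 genes in WT and 6 of 6 in OE, beside 28.6% and 29.8% of all probe sets. In whole leaves, fewer cells that express a gene and less RNA per cell cannot be told apart. Fold changes are on the scale log2(signal + 16), which understates the change of dim genes, and the signal of one probe set gives no rank against that of another.

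**Figure D1:**
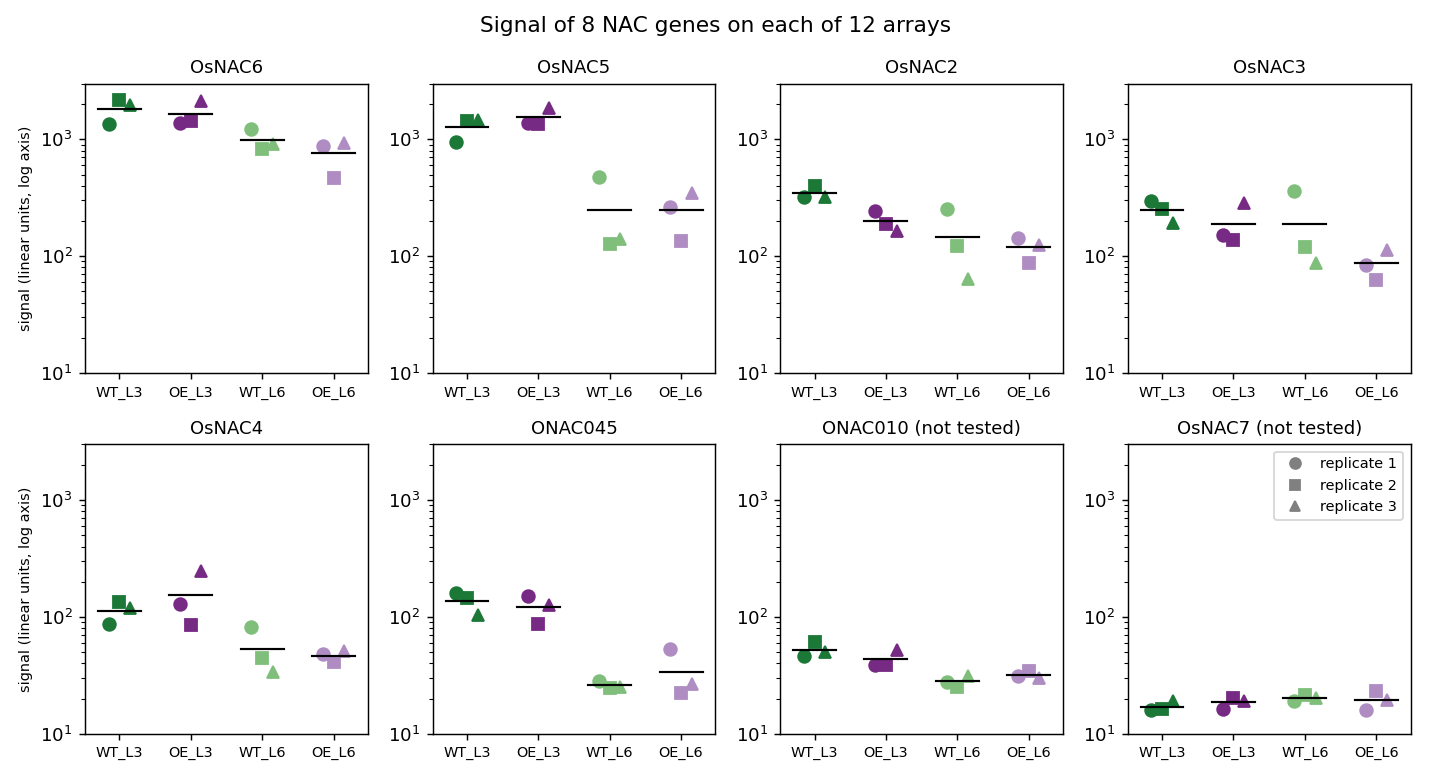
Signal of the 8 NAC genes on each array, on a log axis in linear signal units, with 1 symbol per replicate and a bar at the mean of each group of 3. Every L6 array lies below every L3 array of either genotype for OsNAC6, OsNAC5, OsNAC4, ONAC045 and ONAC010, but not for OsNAC2 and OsNAC3. OsNAC7 stays between 15.8 and 23.1 on all arrays.

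OsNAC6 (LOC4325006, also SNAC2) is a stress-responsive activator whose over-expression raises tolerance of drought and salt in rice. Its main probe set read 1343, 2161 and 1983 in WT_L3 and 1215, 822 and 915 in WT_L6, in order of replicate. The OE_L3 arrays read 1381, 1435 and 2131, and in OE_L6 it read 873, 469.5 and 930.1. All L6 arrays thus lay below all L3 arrays of their genotype, although WT replicate 1 showed almost the same signal in both leaves. The gene was 1.83-fold lower in L6 of WT (log2 -0.87, SE 0.29, limma adjusted p = 0.0299) and 2.20-fold lower in L6 of OE (log2 -1.14, SE 0.29, limma adjusted p = 0.0115). The WT call was lost when 1 array was left out, namely WT_L3 replicate 2 (adjusted p = 0.106) or 3 (0.0950) or WT_L6 replicate 2 (0.0994) or 3 (0.0799), each time with a log2 difference of -0.83 to -0.74.

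A further 2 probe sets of OsNAC6 were dim at means of 41.4 and 38.3, both under the filter, which stood at a mean of 41.6 signal units. The brighter of them went the way of the main probe set, from 58.7 ± 18.4 in WT_L3 to 29.3 ± 7.92 in WT_L6 and from 53.6 ± 19.2 in OE_L3 to 24.1 ± 6.28 in OE_L6 (SD, n = 3). With no filter both falls passed (limma adjusted p = 0.0348 in WT and 0.0268 in OE), although the WT groups overlap. The dimmer one went the other way in WT, from 31.9 ± 3.52 to 41.0 ± 0.722 (limma adjusted p = 0.0381 with no filter), and stood at 39.5 ± 3.12 and 41.0 ± 5.60 in OE. The probe sets of OsNAC6 thus disagree in direction at low signal.

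OsNAC5 (LOC4349963, also ONAC071) is induced by abscisic acid and drought and is also linked to senescing rice leaves. Its L6 signal was far under its L3 signal in both genotypes. Its main probe set read 943, 1442 and 1476 in WT_L3 and 474, 127 and 140.5 in WT_L6. OE_L3 arrays were at 1386, 1363 and 1869, and in OE_L6 it read 263, 134 and 347. No L6 array lay above 474, and no L3 array lay under 943. It was 5.75-fold lower in L6 of WT (log2 -2.52, SE 0.46, limma adjusted p = 0.00203) and 6.21-fold lower in L6 of OE (log2 -2.64, SE 0.46, limma adjusted p = 0.00186). Both calls held without any 1 of the 12 arrays, with log2 differences of -3.09 to -2.21 in WT and -2.91 to -2.28 in OE. A further probe set of the type _x_at, which can bind related transcripts, also fell in both genotypes, by 1.68-fold in WT and 1.69-fold in OE (limma adjusted p = 0.00976 and 0.0111). It passed the filter of 41.6 only through L3, with means of 74.1 in WT and 66.5 in OE. Its L6 means, 38.1 in WT and 32.3 in OE, were under that filter, so its fall is weak support. This probe set had a log2 difference of -0.15 between OE and WT in each leaf, opposite in sign to the main one, and neither passed. The last probe set of the gene was at a mean of 34.6, under the filter. With no filter its leaf difference was log2 -0.37 in WT and -0.38 in OE, and neither passed (limma adjusted p = 0.0521 and 0.0538).

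ONAC045 (LOC4349650), a gene of drought and salt responses, showed the most even leaf difference. It read 160, 144 and 103 in WT_L3 and 28.0, 24.6 and 25.1 in WT_L6. Values in OE_L3 were 151, 87.5 and 127, and in OE_L6 it read 52.7, 22.5 and 26.4. The L6 arrays were near the dim end of the scale except for OE_L6 replicate 1, the array with the differing Dap control, which read 52.7. Means were 25.9 in WT_L6 and 33.9 in OE_L6, under the filter of 41.6 signal units. The gene thus passed the filter only through its L3 signal, with means of 136 in WT and 122 in OE. Its evenness in L6 of WT was read at this dim signal, with 16 added. The gene was 3.58-fold lower in L6 of WT (log2 -1.84, SE 0.24, limma adjusted p = 0.000335) and 2.81-fold lower in L6 of OE (log2 -1.49, SE 0.24, limma adjusted p = 0.00115). Both calls held without any 1 of the 12 arrays. Without OE_L6 replicate 1 the log2 difference in OE was -1.74, and the call held.

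OsNAC3 (LOC4342753, also ONAC067), a gene that responds to abscisic acid and salt, was the exception among the 6. It read 295, 251 and 193 in WT_L3 and 359, 120 and 87.2 in WT_L6. In OE_L3 it read 150, 137 and 284, and in OE_L6 it read 83.8, 62.2 and 114. WT replicate 1 alone was higher in L6 than in L3, and the WT groups overlap, while the OE groups do not. The log2 difference was -0.57 in WT (95% interval -1.55 to 0.40, limma adjusted p = 0.300) and -0.97 in OE (-1.95 to 0.00, limma adjusted p = 0.0964), and neither passed. The WT value rested on single arrays, being -0.20 without WT_L6 replicate 3 (adjusted p = 0.742). Without WT_L6 replicate 1 both passed, at log2 -1.13 in WT (adjusted p = 0.0195) and -0.97 in OE (0.0247). The OE difference also passed with the plant as a fixed block (0.0347), with the OE groups fitted alone (0.0452) and without both leaves of WT plant 1 (0.0205).

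OsNAC2 (LOC4336052, also ONAC004), which shares the synonym NAC4 with OsNAC4 in the gene table, is known in rice as a promoter of leaf senescence that acts on chlorophyll breakdown and abscisic acid genes. It read 323, 400.3 and 321 in WT_L3 and 252, 123 and 64.1 in WT_L6. In OE_L3 it read 242, 188 and 165, and in OE_L6 it read 144, 86.5 and 126. Both genotypes had all L6 arrays below all L3 arrays. The gene was 2.51-fold lower in L6 of WT (log2 -1.33, SE 0.36, limma adjusted p = 0.0134), a call lost only without WT_L3 replicate 2 (0.0504) among the arrays left out in turn. In OE the log2 difference was -0.68 (95% interval -1.48 to 0.12, limma adjusted p = 0.149) and did not pass. It passed when the OE groups were fitted alone (0.0413), without both leaves of WT plant 1 (0.0473) and without WT_L6 replicate 1 (0.0468). Leaving out WT arrays leaves the OE values as they were and changes the shared estimate of the spread.

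OsNAC4 (LOC4327485, also ONAC068) is known in rice as a trigger of hypersensitive cell death. It read 86.1, 134 and 119 in WT_L3 and 82.1, 44.8 and 33.8 in WT_L6. In OE_L3 it read 129, 85.4 and 247, and in OE_L6 it read 47.9, 41.1 and 50.7. WT replicate 1 was nearly level between its leaves, and the highest value of all was OE_L3 replicate 3. The gene was 2.52-fold lower in L6 of OE (log2 -1.33, SE 0.33, limma adjusted p = 0.0108), a call that held without any 1 array. In WT it was 1.91-fold lower (log2 -0.93, SE 0.33, limma adjusted p = 0.0405). That call was lost with the plant as a fixed block (0.0592), with the plant as a random block (0.0503), with 64 as the pseudocount (0.0564) and when any of 8 single arrays was left out (0.0516 to 0.140).

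The other 2 genes were under the filter, which lay between the mean signals of ONAC045 (79.4) and ONAC010 (39.0). ONAC010 (LOC4343630) read 46.4, 61.0 and 50.2 in WT_L3 and 27.7, 25.1 and 31.1 in WT_L6. In OE_L3 it read 39.0, 39.0 and 52.6, and in OE_L6 it read 31.1, 34.7 and 30.0. L6 lay below L3 in each of the 6 plants. With no filter the log2 difference was -0.64 in WT and -0.31 in OE (limma adjusted p = 0.00135 and 0.0495). OsNAC7 (LOC4341201, also ONAC076) had its main probe set between 15.8 and 23.1 on all arrays and the other between 3.37 and 8.90, at the dim end of the array, so no leaf difference could be read. With no filter its main probe set had log2 differences of 0.13 in WT and 0.03 in OE (limma adjusted p = 0.220 and 0.779).

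Over the whole set the count of calls depended on single WT arrays. Of the 6 tested genes, 2 fell in WT without WT_L3 replicate 2, 3 fell without WT_L3 replicate 3, WT_L6 replicate 2 or WT_L6 replicate 3, and 6 fell without WT_L6 replicate 1. Without both leaves of WT plant 1, a setting chosen after seeing the data, 6 fell in WT and 6 in OE.

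**Figure D2:**
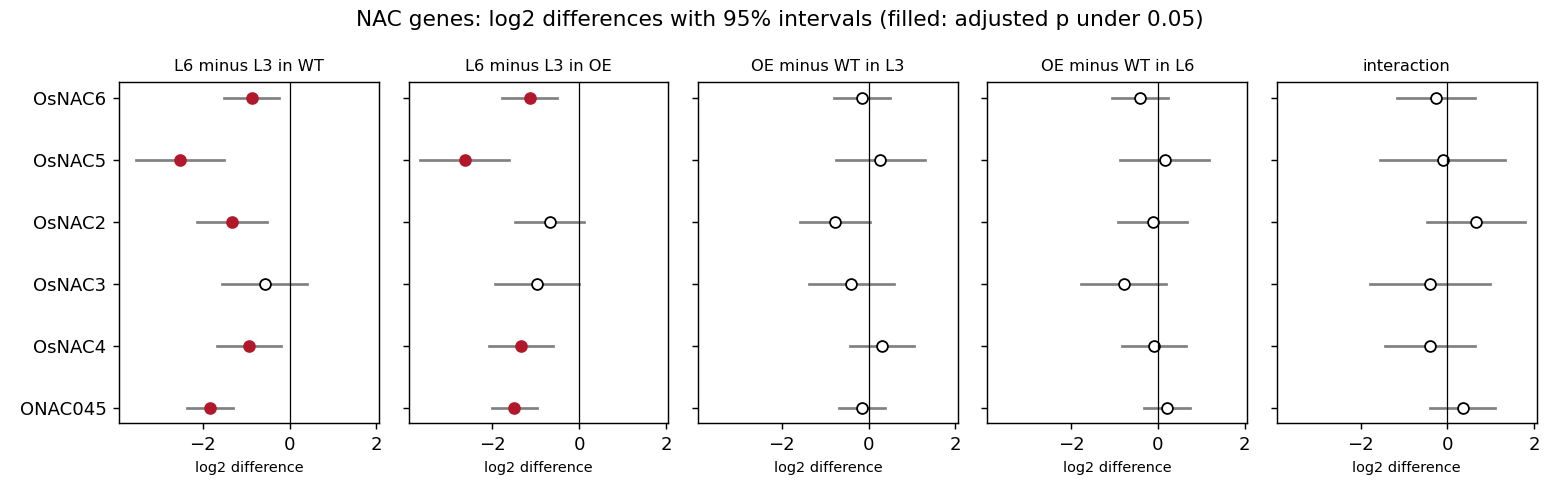
Log2 differences of the 6 tested NAC genes in the 5 comparisons, with 95% intervals from the limma fit and filled points where the adjusted p was under 0.05. Calls appear only in the 2 leaf comparisons, 5 in WT and 4 in OE, all below 0.

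Extra miR156 gave no called difference in the NAC genes. In L3 none of the 6 genes passed limma, and 0 had an unadjusted p under 0.05, where 0.131% of all tested probe sets passed and 3.88% had an unadjusted p under 0.05. In L6 none of the 6 passed and 0 had an unadjusted p under 0.05, where 0.111% of all passed and 7.7% had an unadjusted p under 0.05. Missing the threshold does not show that the genotypes were alike. The 95% intervals of OsNAC5 (-0.75 to 1.29 in L3 and -0.87 to 1.18 in L6) and ONAC045 (-0.67 to 0.38 and -0.32 to 0.73) did not reach the leaf differences of these genes. Those of OsNAC2 in L3 and OsNAC3 in both leaves held the leaf differences of both genotypes. In L6 the interval of OsNAC6 (-1.05 to 0.23) held its WT leaf difference of -0.87, and that of OsNAC2 (-0.92 to 0.68) its OE leaf difference of -0.68. For OsNAC4 in L3 the interval (-0.44 to 1.04) reached a rise larger than its WT fall of -0.93.

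In L3 the lowest difference was that of OsNAC2, with a mean of 198 ± 39.7 in OE_L3 and 348 ± 45.2 in WT_L3 (SD, n = 3; log2 -0.77, 95% interval -1.57 to 0.03, limma unadjusted p = 0.0568, adjusted p = 1.00). Every OE_L3 array was under every WT_L3 array, as for 4.08% of all probe sets, and its log2 difference ran from -0.92 to -0.66 over all alternatives without passing in any. OsNAC3 was at 190.3 ± 81.1 against 247 ± 50.8 (log2 -0.40, 95% interval -1.37 to 0.58). OsNAC6, OsNAC5, OsNAC4 and ONAC045 had log2 differences of -0.15, 0.27, 0.30 and -0.15, and the groups overlapped for each of them. These values rested on single arrays too. With 1 array left out they ran from -0.35 to -0.01 for OsNAC6 and from 0.06 to 0.38 for OsNAC5. The sign turned for OsNAC4 without OE_L3 replicate 3 (-0.07) and for ONAC045 without OE_L3 replicate 2 (0.05).

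In L6 the lowest difference was that of OsNAC3, with 86.5 ± 25.8 in OE_L6 and 189 ± 148 in WT_L6 (log2 -0.79, 95% interval -1.77 to 0.18, limma adjusted p = 0.700). It was -0.24 without WT_L6 replicate 1 and -1.17 without WT_L6 replicate 3. OsNAC6 was at 758 ± 251 against 984 ± 206 (log2 -0.41, 95% interval -1.05 to 0.23). OsNAC5, OsNAC2, OsNAC4 and ONAC045 had log2 differences of 0.16, -0.12, -0.10 and 0.20, and the groups overlapped for all 6 genes. These signs also changed with single arrays. OsNAC2 was at 0.33 and OsNAC4 at 0.18 without WT_L6 replicate 1, OsNAC5 was at -0.16 without WT_L6 replicate 2, and ONAC045 was at -0.05 without OE_L6 replicate 1.

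The leaf differences of the genotypes were compared by the interaction, the L6 minus L3 difference in OE minus that in WT. None of the 6 genes passed, and 0 had an unadjusted p under 0.05, beside 0.0175% and 2.46% of all probe sets. The estimate was 0.65 for OsNAC2 (95% interval -0.48 to 1.78), 0.35 for ONAC045, -0.11 for OsNAC5, -0.26 for OsNAC6, -0.40 for OsNAC3 and -0.40 for OsNAC4. Single arrays moved them strongly. OsNAC2 was at 1.10 without WT_L6 replicate 1 and 0.23 without WT_L6 replicate 3. Without WT_L6 replicate 1, OsNAC5 turned to 0.46 and OsNAC3 to 0.16. OsNAC6 turned to 0.04 without OE_L6 replicate 2, and OsNAC4 came to -0.03 without OE_L3 replicate 3. That OsNAC2 passed in WT and not in OE is therefore no shown difference between genotypes. With no filter, the dim gene ONAC010 had log2 differences between OE and WT of -0.21 in L3 and 0.12 in L6, and an interaction of 0.33 (limma unadjusted p = 0.0470, adjusted p = 1.00). OsNAC7 had 0.07, -0.03 and -0.10, and none of these passed.

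**Figure D3:**
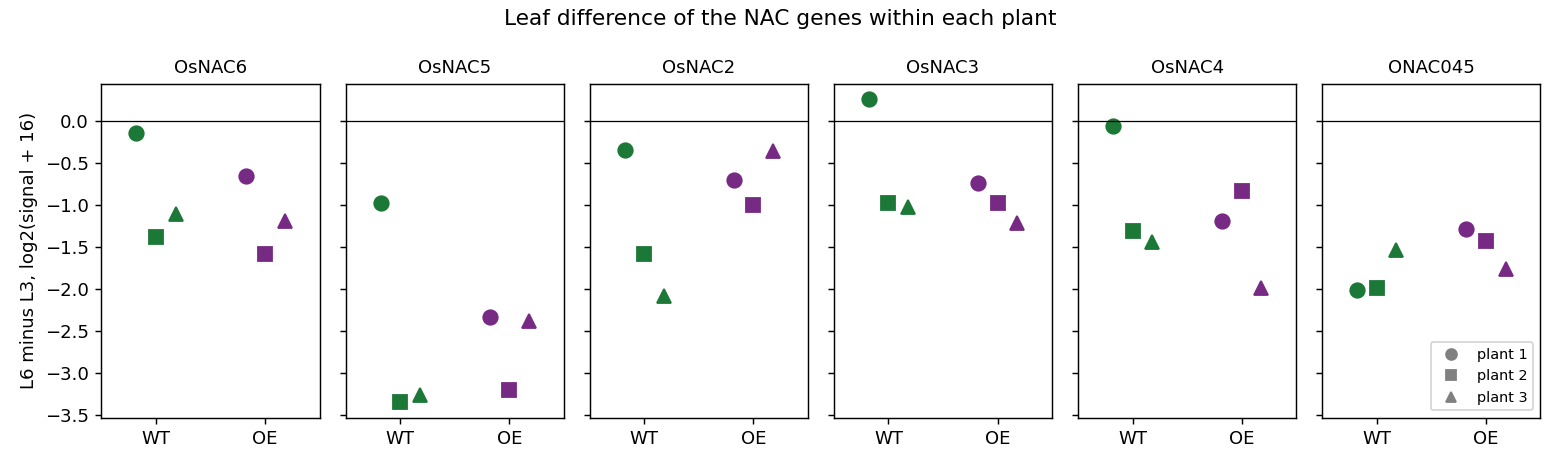
L6 minus L3 difference of the 6 tested NAC genes within each of the 6 plants, on the log2(signal + 16) scale, with 1 symbol per plant number. WT plant 1 has the smallest fall of the WT plants in every gene but ONAC045, and it is the only plant above 0, for OsNAC3.

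Within single plants, L6 lay below L3 in 6 of 6 plants for OsNAC6, OsNAC5, OsNAC2, OsNAC4 and ONAC045, and in 5 of 6 for OsNAC3. WT plant 1 stood apart. Its log2 difference was -0.14 for OsNAC6, against -1.38 and -1.10 in WT plants 2 and 3. For OsNAC5 it was -0.97 against -3.35 and -3.25, and for OsNAC4 it was -0.06 against -1.31 and -1.43. ONAC045 went the other way, its fall being no smaller in plant 1 than in plants 2 and 3 (-1.98 and -1.53).

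Both leaves of WT plant 1 had leaf scores nearer to the other leaf than those of the other WT plants, 0.380 in L3 and 0.915 in L6, where WT_L6 replicates 2 and 3 scored 1.11 and 1.07. WT_L6 replicate 1 was the highest WT_L6 array for 6 of 6 tested NAC genes. It was the highest for 37.2% of all tested probe sets and for 69.4% of the 6907 that fell in L6 of both genotypes. WT_L3 replicate 1 was the lowest WT_L3 array for OsNAC6, OsNAC5 and OsNAC4 and the highest for OsNAC3 and ONAC045. Over all tested probe sets it was the lowest for 36.4% and the highest for 45.6%. Among the 6907, which were picked by their fall on these same arrays, it was the lowest for 86.2% and the highest for 3.76%. OE_L6 replicate 2 was the lowest OE_L6 array for 6 of 6 genes, as for 41.0% of all probe sets and 65.4% of the 6907. The part of leaf stage in these values was not tested.

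Spread among plants of 1 group was described by the SD on the log2 scale, set beside the median SD of all tested probe sets. It was above that median for 6 of 6 tested NAC genes in WT_L3 and in OE_L3, and for 5 of 6 in WT_L6 and in OE_L6. The dim genes ONAC010 and OsNAC7 were above it for 1 of 2 in WT_L3, OE_L3 and OE_L6 and for 0 of 2 in WT_L6. In WT_L6 the SD on the log2 scale was 0.99 for OsNAC5, 0.98 for OsNAC3 and 0.87 for OsNAC2, where the median of all tested probe sets was 0.12, and each of these 3 lay above 99.5% of them. OsNAC4 had 0.50, above 97.4%, and ONAC045, dim in this group at a mean of 25.9, had 0.06, above 19.3%. In OE_L3 the widest were OsNAC4 at 0.69 and OsNAC3 at 0.53, above 95.2% and 92.9%. In OE_L6 OsNAC5 had 0.65 and OsNAC6 had 0.53, above 98.4% and 97.4%, while OsNAC4 had 0.12, above 49.5%. In WT_L3 the highest was OsNAC6 at 0.36, above 85.9%. The model pools this spread over the 4 groups.

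Genes with a like profile were sought among 2151 other named genes by the root mean square difference of mean-centred log2 values over the 12 arrays, as a description. Nearest to OsNAC6 were PP2C02, CIGR2 and PAP2 at 0.14, 0.20 and 0.20, where the centred values of OsNAC6 itself have a root mean square of 0.62. Nearest to OsNAC5 were SCAMP4, ERR26 and PP2C29 at 0.22, 0.23 and 0.26, against 1.39 for OsNAC5 itself. Nearest to OsNAC2 were GLK1, WRKY51 and PP2C32 at 0.33, 0.35 and 0.35, against 0.70, a weaker likeness. PP2C names stand for type 2C protein phosphatases, GLK1 for a chloroplast development factor and WRKY51 for a WRKY factor. The search covered the 3 brightest NAC genes.

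Next, 3 processes tied to NAC factors were then set beside them, chlorophyll breakdown, the drought response and the secondary wall. Of 16 listed genes of chlorophyll breakdown and leaf senescence, 5 had a named probe set and were tested. In WT 3 fell in L6, 1 rose and 1 did not pass, and in OE 3 fell and 2 did not pass, with median log2 differences of -1.20 and -1.05. Of all tested probe sets 24.2% fell and 23.9% rose in WT, and 23.5% fell and 19% rose in OE. RCCR1, an enzyme that reduces a breakdown product of chlorophyll, was at 1461 ± 139 in WT_L3 and 449 ± 36.9 in WT_L6 (SD, n = 3; log2 -1.66, limma adjusted p = 5.75e-05). The stay-green gene SGR, which removes magnesium from chlorophyll, was at 245 ± 8.31 and 89.5 ± 20.4. The senescence-associated gene Osl2 was at 618 ± 59.0 and 260.3 ± 17.1. All 3 fell in OE too. NOL, a chlorophyll b reductase partner, rose in WT from 533 ± 51.0 to 725 ± 122.

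The abscisic acid and drought genes held calls in both directions. Of 29 listed entries 13 genes were on the array and 11 were tested. In WT 3 rose and 3 fell in L6, and in OE 2 rose and 3 fell, with medians of 0.19 and -0.07. These shares were near those over all probe sets, given above for the chlorophyll list. The bZIP factor gene TRAB1 fell from 338 ± 27.7 to 228 ± 23.2 in WT, and DREB2A and DREB2B fell as well. DREB2A passed the filter of 41.6 signal units only through L3, with L6 means of 38.1 in WT and 39.5 in OE. RAB16D, a dehydrin gene, rose from 36.3 ± 7.53, under that filter, to 78.7 ± 14.2 in WT. P5CS1, of proline synthesis, rose in both genotypes. RAB25 rose in WT, from 33.4 ± 4.14 to 80.7 ± 6.53, and stood at 35.7 ± 2.86 and 39.7 ± 2.27 in OE (limma adjusted p = 0.274). It was the 1 gene of this list that was called for over-expression, being lower in OE_L6 (log2 -0.79, limma adjusted p = 0.00213). RAB25 passed the filter only through WT_L6, as its means in the other groups were under 41.6. Its rise in WT and its call in OE_L6 both rest on that group. The interaction of RAB25 did not pass (log2 -0.86, limma adjusted p = 0.0591).

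Secondary wall genes were mostly higher in the young leaf. Of 25 listed, 10 were tested, and 8 rose in L6 of WT and 6 in L6 of OE, where 23.9% and 19% of all probe sets rose. Median log2 differences were 1.91 and 1.49. The laccase genes LAC10 and LAC4 rose in WT from 105 ± 109 to 556 ± 60.1 and from 108 ± 166 to 765 ± 39.9, and IRX14, of xylan synthesis, from 512 ± 171 to 1048 ± 90.5. SDs of LAC10 and LAC4 in WT_L3 exceeded their means. The same held for CESA4 (438 ± 669), CESA7 (313 ± 396) and CESA9 (264 ± 405), which are among the genes that rose in WT. CCR1, of lignin synthesis, was at 42.2 ± 6.95 and 56.0 ± 3.78. No member of the wall or chlorophyll list passed for over-expression in either leaf, where 0.131% of all tested probe sets passed in L3 and 0.111% in L6. This does not show that the lists were level. Of the wall genes 8 had a positive log2 difference between OE and WT in L3 and 2 a negative one, and in L6 1 and 9. Of the chlorophyll genes 4 were positive and 1 negative in each leaf, with Osl2 highest (log2 0.33 in L3 and 0.47 in L6).

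**Figure D4:**
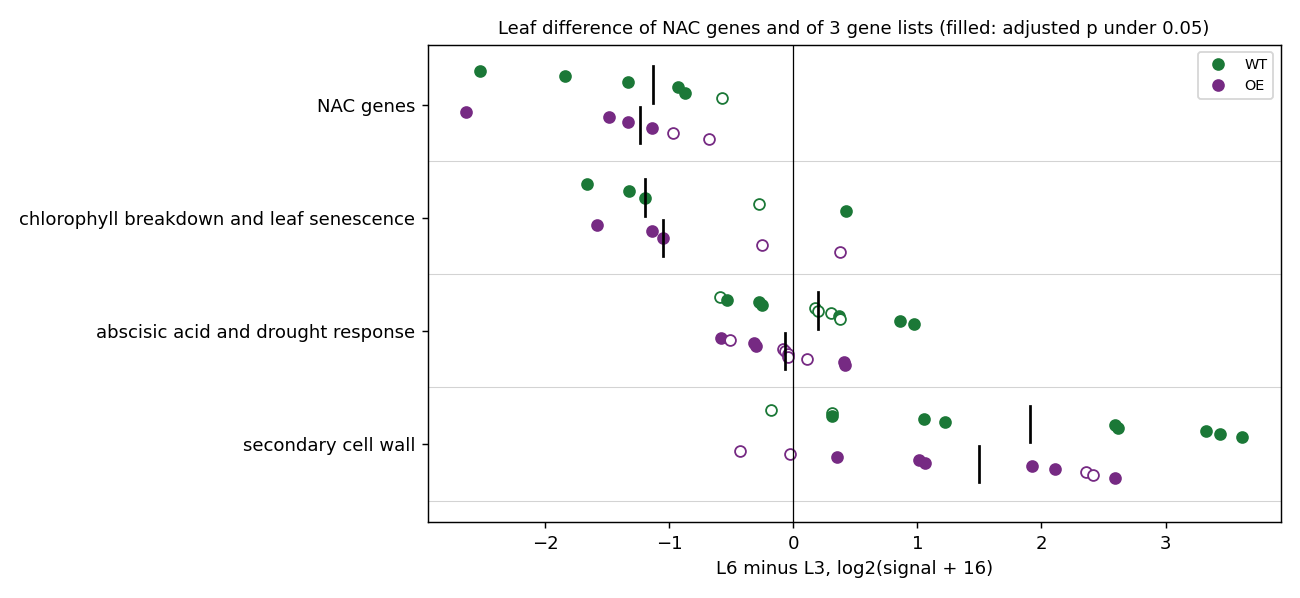
L6 minus L3 differences of the 6 tested NAC genes and of the tested genes of 3 lists, 1 point per gene, in WT (green) and OE (purple), with black bars at the medians and filled points where the adjusted p was under 0.05. The NAC genes lie below 0 in both genotypes, the drought genes on both sides, and most wall genes above 0.

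As a reference for the over-expression itself, 6 of 12 listed SPL genes with a miR156 site were tested. SPL4 was lower in OE_L6, at 211 against 364 in WT_L6 (limma adjusted p = 0.0177), and none passed in L3. Of all tested probe sets 0.111% passed in L6 and 0.131% in L3. In L6 5 of the 6 had a negative log2 difference, and SPL18 had a positive one (0.52). SPL14 was at 65.1 ± 5.95 in OE_L6 against 285 ± 173 in WT_L6, and SPL12 at 336 ± 13.1 against 585 ± 22.2. Neither passed (limma adjusted p = 0.572 and 0.226). In the leaf comparison 4 of 6 SPL genes rose in L6 of WT and 2 of 6 in L6 of OE, beside 23.9% and 19% of all probe sets, and none fell. SPL14 and SPL16 passed the filter of 41.6 signal units only through L6, their L3 means lying under it in both genotypes. Both are among the rises in WT, and SPL16 is among those in OE, so these counts are partly set by the filter. SPL12 was at 239.7 ± 40.2 in WT_L3 and 585 ± 22.2 in WT_L6, SPL16 at 37.9 ± 14.6 and 84.5 ± 6.56, and SPL14 at 30.7 ± 27.7 and 285 ± 173. SPL18 was at 81.5 ± 53.0 in OE_L3 and 239.6 ± 64.6 in OE_L6 and did not pass (limma adjusted p = 0.0674).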

How the data were processed

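TRIzol total RNA of each leaf was turned into biotin cRNA for Affymetrix rice arrays, according to the protocols in the labels. The authors deposited 1 intensity for each probe set on each array, on a linear scale, as read from the values. The scanner, summarization and scaling were not given in the sources used here. No normalization was added, the log2 medians of the arrays lying within 0.12 of each other. The number of arrays limits the precision, and p-values measure the spread between plants or lines.

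Intensities were taken as log2(signal + 16). The test covered 34316 probe sets, without 187 controls and without all whose mean linear signal was under the 40th percentile. A single limma 3.58.1 model in R 4.3.3 (lmFit, eBayes with a trend) held 4 group means and 8 residual degrees of freedom. All p-values are two-sided and were adjusted over the tested probe sets by the Benjamini-Hochberg method. The fit was run on simulated data with known changes and independent noise on each array. Those data held no pairing of leaves by plant and no outlying arrays, so the calls were not checked against these. Tables were joined with pandas 2.3.3 and drawn with matplotlib 3.10.9 under Python 3.11.15. Names came from the platform annotation and the NCBI gene table through gene IDs, with 22436 probe sets naming 1 gene, 95 naming several and 34663 other non-control probe sets naming none. The brightest probe set stood for a gene.

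The members' values are given in every comparison, those under the filter from the fit with no filter. From each context list the text names the 3 members with the strongest statistic in each leaf comparison and each one called for over-expression. DREB2A, NOL, CESA4, CESA7 and CESA9 were added after their values were seen. Members and lists were chosen with earlier results of these data known. Alternatives covered normalization, pseudocount, filter, eBayes trend, blocks, array weights, 1 probe set per gene and each array left out. L3 and L6 of a number come from the same plant, per the labels. Over all tested probe sets, deviations of such WT pairs had correlations of -0.244, -0.362 and -0.0491, and those of OE pairs 0.11, 0.151 and 0.204. No gene or probe sequence was used here.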

Additional observations from a re-analysis of the deposited data

How the results depend on the processing

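Under 24 alternatives no called NAC difference turned its sign. The counts of NAC genes called for over-expression in L3, in L6 and for the interaction were 0 under all of them. The count lower in L6 of WT, 5 as reported, ran from 2 to 6 with 1 array left out and from 4 to 6 under the others. The count in OE, 4 as reported, ran from 4 to 6 and from 3 to 6. Counts are out of 6 genes, but out of 8 with no filter and out of 5 with the 60th percentile filter. The others include the setting without both leaves of WT plant 1, chosen after seeing the data. OsNAC5 and ONAC045 passed in both genotypes under every alternative that tested them, and ONAC045 was not tested under the 60th percentile filter. With the replicate block (the plant as a fixed term) 4 fell in WT, without OsNAC4, and 5 in OE, with OsNAC3. OE and WT plants share only a number. Deviations of same-numbered arrays correlated at 0.726, -0.717 and 0.797 in L3 and 0.2, 0.487 and -0.0931 in L6.

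Over all probe sets, calls for over-expression were few and moved with the settings. In L3 there were 45 as reported, 27 with the 60th percentile filter, 14 with the compared groups alone, 7 with 1 probe set per gene, 210 with array weights, and 25 to 53 with 1 array left out. In L6 there were 38, and 3 with 1 probe set per gene, 306 with array weights, 25 without both leaves of WT plant 1, and 22 to 50 with 1 array left out. The interaction gave 6, and 0 with a pseudocount of 1 or the fixed replicate block, 2 with the random block or the 60th percentile filter, 1 with 1 probe set per gene, 3 without both leaves of WT plant 1, 26 with array weights, and 0 to 7 with 1 array left out. The leaf comparisons gave 16528 in WT and 14595 in OE, 9231 and 8241 with 1 probe set per gene, which tests fewer, and 10448 to 18522 and 9027 to 16554 with 1 array left out. The other causes were not tested. Genes near background, such as ONAC010 and OsNAC7, limit what can be read.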
